A study of Mus musculus with 4 samples.

Results

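The genes described are 9 regulators of G protein signalling with known expression in neurons, Rgs2, Rgs4, Rgs7, Rgs8, Rgs9, Rgs10, Rgs14, Rgs16 and Rgs17. They were chosen by name, as the array features whose symbol in the platform annotation is exactly one of these. All 9 were found. They hold 13 of the 33647 features tested and 9 of the 19085 genes, since Rgs2, Rgs4, Rgs8 and Rgs17 each have 2 features and the other 5 genes have 1. No filter on low values was applied, so every feature of every gene is accounted for below.

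RNA came from the globus pallidus of male mice of the C57BL6 background that went through conditioned place preference, in which an animal comes to favour the compartment paired with a drug. The treated mice received cocaine at 15 mg/kg on days 2, 3 and 4 and had a high preference score, and the control mice received saline on the same days. Each of 4 two-colour Agilent arrays compared the RNA of 1 cocaine mouse with that of 1 saline mouse, which gives 4 pairs and 8 mice. Cocaine RNA carried the dye Cy5 in pairs 1 and 3 and the dye Cy3 in pairs 2 and 4. For the animals' ages and the time from the last injection to dissection, no value was given in the sources used here. The treated mice were kept for their high score, so the comparison is between high-scoring cocaine mice and saline mice, not between all mice given either agent. RNA of the whole dissected nucleus was measured, so fewer cells of a type and less RNA per cell cannot be told apart. Values are log2 ratios of cocaine over saline after loess within each array. The deposited table does not state which treatment is the numerator. Cocaine over saline is the likely order, as the series design names the cocaine mice first, and every sign below, of treatment and of dye, turns if the order was the other one.

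A G protein-coupled receptor signals by loading GTP onto the alpha subunit of its G protein, and the signal ends when the subunit hydrolyses that GTP. RGS proteins bind the active alpha subunit and speed the hydrolysis, which shortens responses to dopamine, opioids, cannabinoids, acetylcholine and GABA. Rgs2, Rgs4, Rgs8 and Rgs16 belong to the small R4 subfamily, Rgs7 and Rgs9 to the R7 subfamily whose proteins need the partner Gnb5, Rgs10 and Rgs14 to R12, and Rgs17 to RZ. In the basal ganglia, the long form of Rgs9 is best known from striatal projection neurons, which send their axons to the globus pallidus.

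The 9 genes lie on 5 chromosomes, with 5 of them on chromosome 1. In the RefSeq gene order of GRCm38.p6, Rgs8 and Rgs16 are neighbouring protein-coding genes, Rgs4 is next to Rgs5, Rgs2 lies between Uchl5 and Rgs13, and Rgs9 lies between Axin2 and Gna13. RefSeq promoter windows were matched for 8 of the 9 members (10 windows), all but Rgs14. The 250 bases before the start site were searched on both strands for TGACG, the core of the cAMP response element, which reads CGTCA on the other strand, and for TGACTCA, the AP-1 element, which reads TGAGTCA there. The 2 motifs cannot share a match. TGACG was found in 3 of the 10 windows, those of Rgs2 and Rgs4 and 1 of the 3 of Rgs8, and in 17.8% of 32851 promoter windows of the same length. TGACTCA was found in 1 of the 10, that of Rgs17, and in 4.46% of all windows. The windows of Rgs2 and Rgs17 are shown because these genes have the highest and the lowest fitted change among the 9. Both are on the minus strand, read 5′ to 3′ towards the gene, and capitals mark the motif matches. The Rgs2 window is chr1:144004150-144004399, with matches starting at -185 and -67 from the start site, and the Rgs17 window is chr10:5922401-5922650, with a match starting at -122. A match is a string of letters and is no measurement of factor binding.
Rgs2: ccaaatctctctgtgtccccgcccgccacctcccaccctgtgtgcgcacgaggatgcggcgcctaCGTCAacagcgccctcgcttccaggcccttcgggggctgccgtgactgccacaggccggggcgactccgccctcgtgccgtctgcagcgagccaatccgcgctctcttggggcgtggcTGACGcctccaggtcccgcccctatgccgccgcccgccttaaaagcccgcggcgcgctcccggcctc
Rgs17: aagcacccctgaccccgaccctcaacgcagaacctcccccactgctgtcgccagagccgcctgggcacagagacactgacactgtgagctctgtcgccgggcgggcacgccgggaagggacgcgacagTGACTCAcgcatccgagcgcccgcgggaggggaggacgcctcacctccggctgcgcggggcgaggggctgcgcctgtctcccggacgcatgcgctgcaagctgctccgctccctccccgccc

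None of the 9 RGS genes passed the threshold for a difference between cocaine mice and saline mice. With limma and Benjamini-Hochberg adjustment over all genes, 0 of 9 had an adjusted p under 0.05, beside 0% of the 19085 genes tested, and the members' adjusted p ran from 0.967 to 0.997. At an unadjusted p under 0.05 there were 0 members, beside 2.61% of all genes. An unadjusted p under 0.1 was reached by 1 member, Rgs17, beside 8.04%. An absolute change of 0.1 or more was fitted in 2 of 9, Rgs14 and Rgs17, beside 22% of all genes. The fitted log2 changes ran from -0.14 (Rgs17) to 0.033 (Rgs2), with a median of -0.021, and the median over all genes was -0.0065. Their median absolute change was 0.033, below the 0.050 of all genes, and their median standard error was 0.066, against 0.065 for all genes. In this fit, with the 95% intervals expressed as folds of cocaine over saline, the lowest limit was 0.768 (Rgs14) and the highest 1.27 (Rgs9). With the order of treatments turned, the lowest limit is 0.790 (Rgs9) and the highest 1.30 (Rgs14). The deposited ratios were read as having background left in them, so these limits hold for this fit only. With a constant background subtracted before loess, the log2 change was 0.0082 ± 0.21 for Rgs14, -0.042 ± 0.10 for Rgs2 and -0.25 ± 0.12 for Rgs17 (n = 4 pairs each; limma adjusted p = 0.998, 0.970 and 0.939).

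Read as cocaine over saline, the fitted change was above 0 in 2 of 9 members, Rgs2 and Rgs16, beside 46.4% of all genes, and below 0 in 7 of 9, beside 53.6%. With the order of treatments turned, these shares change places. This split depends on the normalization: 0 of 9 were above 0 in the ratios as deposited, 1 of 9 with each array centred on its median, and 4 of 9 after scaling the arrays to a common spread. No member had the same sign in all 4 pairs, beside 6.17% of all genes. What the members did show was alternation with the dye order. The 2 orders also differed in the form of their deposited values, so dye and processing cannot be told apart. In 7 of 9, all but Rgs8 and Rgs9, the ratio was above 0 in both pairs with cocaine in Cy5 and below 0 in both pairs with cocaine in Cy3, beside 21.4% of all genes.

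**Figure D1:**
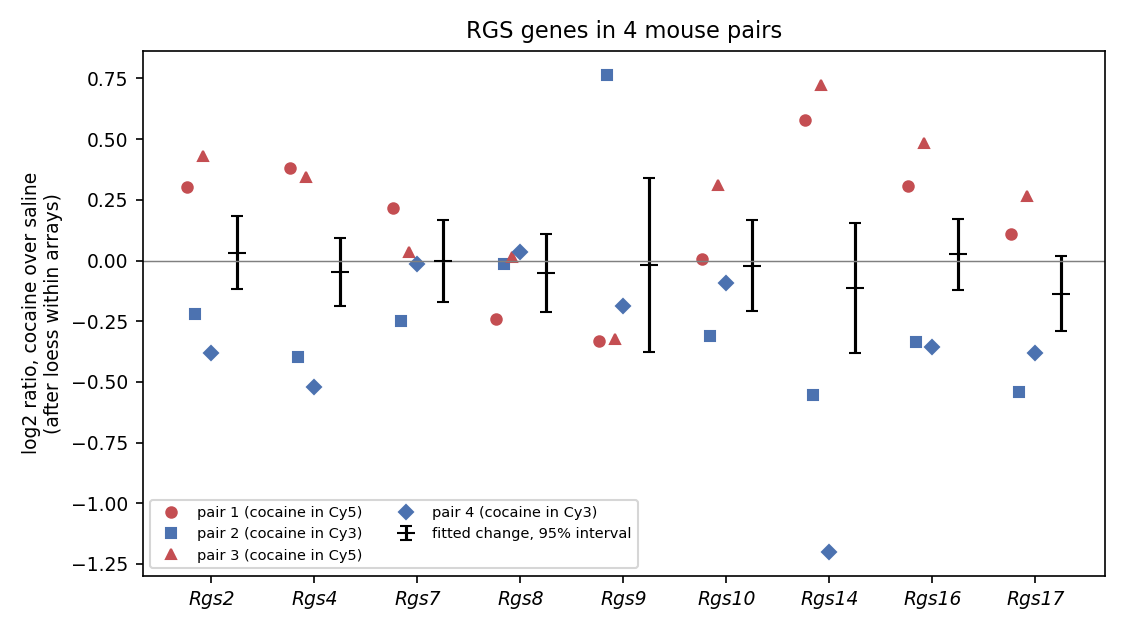
Normalized log2 ratio of cocaine over saline (vertical axis) for the 9 RGS genes (horizontal axis). Coloured symbols are the 4 mouse pairs, red with cocaine in Cy5 and blue with cocaine in Cy3, and black bars are the fitted change with its 95% interval; every interval includes 0, and red lies above 0 and blue below 0 in 7 genes.

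Rgs2 favours the Gq class of alpha subunits and is known as a gene that neurons induce quickly when stimulated. Its ratios were 0.30, -0.22, 0.43 and -0.38 in pairs 1 to 4. Both Cy5 pairs were high and both Cy3 pairs low, with means of 0.37 and -0.30. The fitted change was 0.033 ± 0.062 (moderated SE, n = 4 pairs; limma adjusted p = 0.975), with an interval of -0.12 to 0.18. Without 1 pair it ran from -0.0067 (without pair 2) to 0.072 (without pair 4). The 2 features, which the annotation assigns to the same transcript, did not give the same picture. The brighter feature, at 4847 scanner counts (percentile 95.8 of all features), read 0.33, 0.10, 0.37 and -0.21 in pairs 1 to 4. It was above 0 in 3 of 4 pairs, both Cy5 pairs and pair 2. Its fitted change of 0.15 ± 0.077 (n = 4; limma adjusted p over features = 0.971) is the highest of the 13 features. The dimmer feature, at 79.0 counts (percentile 42.2), read 0.27, -0.54, 0.49 and -0.55, with a fitted change of -0.082 ± 0.070. It followed the dye in every pair. The channel signals behind the brighter feature were recovered for the Cy5 pairs as 7682.5 over 2766 counts in pair 1 and 8879.5 over 2924.5 counts in pair 3, before loess. Only the ratios are in the deposited table, and the scale of every count given here was inferred from them. Taken alone, the brighter feature gives Rgs2 a change of 0.15, while a constant background taken off before loess turns the averaged value to -0.042.

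Rgs4, which acts on Gi and Gq classes and whose protein is short-lived, read 0.38, -0.40, 0.35 and -0.52 in pairs 1 to 4. The Cy5 pairs lay above 0 and the Cy3 pairs below it by similar amounts. The fitted change was -0.048 ± 0.058 (n = 4; limma adjusted p = 0.967), with an interval of -0.19 to 0.093. The feature at 161 counts read 0.084, -0.24, 0.21 and -0.40, and the feature at 75.3 counts read 0.68, -0.55, 0.48 and -0.64. Both alternated with the dye, the dimmer one over the wider range. Their fitted changes, -0.086 ± 0.069 and -0.0099 ± 0.070, were both below 0.

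Rgs8, known from cerebellar Purkinje cells and for speeding the gating of G protein-activated potassium channels, read -0.24, -0.012, 0.015 and 0.036 in pairs 1 to 4. Pair 1 was low and the other 3 pairs lay close to 0, with no alternation. Its change was fitted as -0.051 ± 0.066 (n = 4; limma adjusted p = 0.967), with an interval of -0.21 to 0.11. It was 0.013 without pair 1 and -0.12 without pair 3. The bright feature, at 11230 counts (percentile 97.7), is one of the 2 brightest of the 13 and read -0.11, -0.13, 0.070 and -0.061. The dim feature, at 167 counts, read -0.38, 0.10, -0.040 and 0.13. The low value of pair 1 thus came mainly from the dim feature. Its recovered signals in pair 1 were 175 and 134.5 counts, while those of the bright feature were 17740 and 8376.5.

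Rgs16, the chromosomal neighbour of Rgs8 and a gene with a daily rhythm in the suprachiasmatic nucleus, read 0.31, -0.34, 0.49 and -0.36 in pairs 1 to 4. It alternated with the dye, unlike Rgs8. For cocaine over saline the fit gave 0.025 ± 0.060 (n = 4; limma adjusted p = 0.981), with an interval of -0.12 to 0.17. Without 1 pair it ran from -0.019 (without pair 3) to 0.069 (without pair 1). Its 1 feature had a signal of 104 counts (percentile 54.2).

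Rgs7, which with Gnb5 acts on Go in neurons, read 0.22, -0.25, 0.033 and -0.016 in pairs 1 to 4. Pairs 1 and 2 opposed each other and pairs 3 and 4 were near 0. The fitted change was -0.0029 ± 0.069 (n = 4; limma adjusted p = 0.997), the value nearest 0 of the 9 genes, with an interval of -0.17 to 0.17. It was 0.055 without pair 2, 0.043 without pair 3, -0.049 without pair 1 and -0.061 without pair 4. Its feature had 679 counts (percentile 82.1).

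Rgs9, whose long form dampens dopamine D2 and opioid receptor signalling in the striatum and whose short form ends the light response in photoreceptors, read -0.33, 0.77, -0.32 and -0.19 in pairs 1 to 4. Pair 2 stood apart above 0, and the other 3 pairs were all below it. The fit put the change at -0.018 ± 0.15 (n = 4; limma adjusted p = 0.995), with the widest interval of the 9 genes, -0.38 to 0.34. Without pair 2 the change was -0.26, and without pair 4 it was 0.22, neither past the adjusted threshold (limma adjusted p = 1 and 0.257). Its feature had 670 counts (percentile 82.0), and the channel signals were 913.5 over 567.5 counts in pair 1 and 810 over 480.5 counts in pair 3. The annotated feature does not tell the long form from the short one.

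Markers of striatal projection neurons are set beside Rgs9 because tissue next to the pallidum holds them. Of the 14 listed, 12 were measured, and 11 of these had a signal above the median of all features, 92.6 counts. Their mean ratio was -0.19, 0.14, -0.056 and -0.11 in pairs 1 to 4. In pair 2, 8 of 12 were above 0, against 1, 3 and 5 of 12 in pairs 1, 3 and 4. Among the other gene lists, the count above 0 in pair 2 ran from 1 of 9 astrocyte markers to 12 of 16 other RGS family genes. Pair 2 ratios above 0 were thus not particular to the striatal markers, but the count does not show how high they were. The mean in pair 2 was 0.015 for the other RGS family genes and 0.16 for cholinergic markers, beside 0.14 for the striatal ones. Drd1, the dopamine D1 receptor, read -0.37, 0.97, -0.075 and -0.49, and Penk, the enkephalin precursor, read -0.29, 0.50, -0.20 and 0.0079. Others differed: Ppp1r1b, the phosphoprotein DARPP-32 of these neurons, read -0.038, -0.58, 0.23 and -0.20, lowest in pair 2, and Drd2, the dopamine D2 receptor, read -0.42, -0.19, -0.16 and 0.21, highest in pair 4. Pair 2 was the highest pair of 6 of the 12 markers. These 4 genes were named after their values were seen, to show both patterns. The part of striatal RNA in the Rgs9 values was not tested.

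Rgs10, a small R12 protein made by microglia as well as neurons, read 0.0081, -0.31, 0.31 and -0.093 in pairs 1 to 4. Pair 3 was high, pair 2 low and pair 1 near 0. Its fitted change came to -0.021 ± 0.076 (n = 4; limma adjusted p = 0.990), with an interval of -0.21 to 0.17. It was 0.054 without pair 1, 0.033 without pair 2, -0.097 without pair 3 and -0.076 without pair 4. Its feature is the brightest of the 13, with 11750 counts (percentile 97.8), and the channels gave 17153 over 7473 counts in pair 1 and 21209.5 over 7003 counts in pair 3. Of 10 microglial markers, 8 were measured, all above the median signal, and their mean ratio was 0.042, -0.27, 0.21 and 0.057. Pair 2 was thus the lowest and pair 3 the highest for both the gene and the markers, with 1 of 8 markers above 0 in pair 2 and 8 of 8 in pair 3. Astrocyte markers gave a like split, 1 of 9 above 0 in pair 2 and 9 of 9 in pair 3, so it was not particular to microglia. Rgs10 is also among the members that alternated with the dye order. The part of microglial RNA in the Rgs10 values was not tested.

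Rgs14, a scaffold of hippocampal CA2 neurons that also binds Ras proteins, read 0.58, -0.55, 0.72 and -1.2 in pairs 1 to 4. These are the widest swings of the 9 genes, and they followed the dye. The fitted change was -0.11 ± 0.11 (n = 4; limma adjusted p = 0.967), with an interval of -0.38 to 0.16. It was 0.050 without pair 4 and -0.27 without pair 2. Its feature is the dimmest of the 13, with 74.2 counts (percentile 38.2), and the channels of pair 1 were recovered as 92 over 58 counts. No channel was allowed under 45 counts in that recovery, so the scale of such dim counts depends on this floor.

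Rgs17, an RZ protein that acts on the Gi and Gz classes and regulates opioid receptors, had the smallest unadjusted p of the 9 genes. It read 0.11, -0.54, 0.26 and -0.38 in pairs 1 to 4. The Cy3 pairs were further below 0 than the Cy5 pairs were above it, with means of -0.46 and 0.19. The fitted change was -0.14 ± 0.063 (n = 4; limma unadjusted p = 0.0731, adjusted p = 0.967), with an interval of -0.29 to 0.017. It stood at rank 954 by p among all genes. With the fitted dye effect taken off, the pairs read -0.21, -0.22, -0.061 and -0.056, all 4 below 0. After this step 1 of 9 members, Rgs17, had the same sign in all 4 pairs, beside 17.7% of all genes. The step sets the mean of each dye order to the fitted change. The shared sign across dye orders is thus partly built in and is no independent check of the change. Before the step, the Cy5 pairs were above 0 and the Cy3 pairs below it. The change stayed below 0 without each pair in turn, from -0.18 to -0.097.

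The 2 Rgs17 features, annotated to different transcripts, shared the sign of the fitted change and little else. The brighter feature, at 1252 counts, read -0.26, 0.086, -0.024 and -0.17, with a fitted change of -0.092 ± 0.081. It was below 0 in 3 of 4 pairs and did not alternate. The dimmer feature, at 127 counts, read 0.49, -1.17, 0.55 and -0.59, with a fitted change of -0.18 ± 0.11, the lowest of the 13 features. It supplied the alternation of the gene's average. Neither passed the threshold (limma adjusted p over features = 0.971 for both).

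Of the 13 features, 3 (the dimmer ones of Rgs2 and Rgs4, and Rgs14) had a signal under the median of all features, beside 43.9% of features with 1 symbol. Taken singly, 0 of 13 had the same sign in all 4 pairs, beside 6.28% of all features, and 2 of 13 (the brighter Rgs2 feature and Rgs16) had a change above 0, beside 48.1%. Alternation with the dye was seen in 8 of 13, beside 20%.

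The fitted dye effect, which takes in any other difference between the 2 dye orders, differed widely between features, dim ones included. The 7 features under 200 counts had a median fitted dye effect of 0.46 (Cy5 over Cy3, log2), from -0.16 to 0.76. The 6 brighter features had a median of 0.083, from -0.31 to 0.20. The negative values in either class were those of Rgs8 at 167 counts, and of Rgs9 and the brighter Rgs17 feature. Over all features the same split gave medians of -0.019 and 0.0097, and the difference between the classes was not tested. By gene, the dye effect passed an adjusted p under 0.05 in 5 of 9 members (Rgs2, Rgs4, Rgs14, Rgs16 and Rgs17), beside 9.28% of all genes. By feature it passed in 5 of 13, beside 10.2%. These 5 features belong to the same 5 genes, and each has under 200 counts. For cocaine, 0 of 13 features passed an adjusted p under 0.05 and 0 an unadjusted one, beside 0% and 2.07% of all features. The median ratio of the features surrounding each member on the array stayed between -0.12 and 0.14 in all 52 cases.

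**Figure D2:**
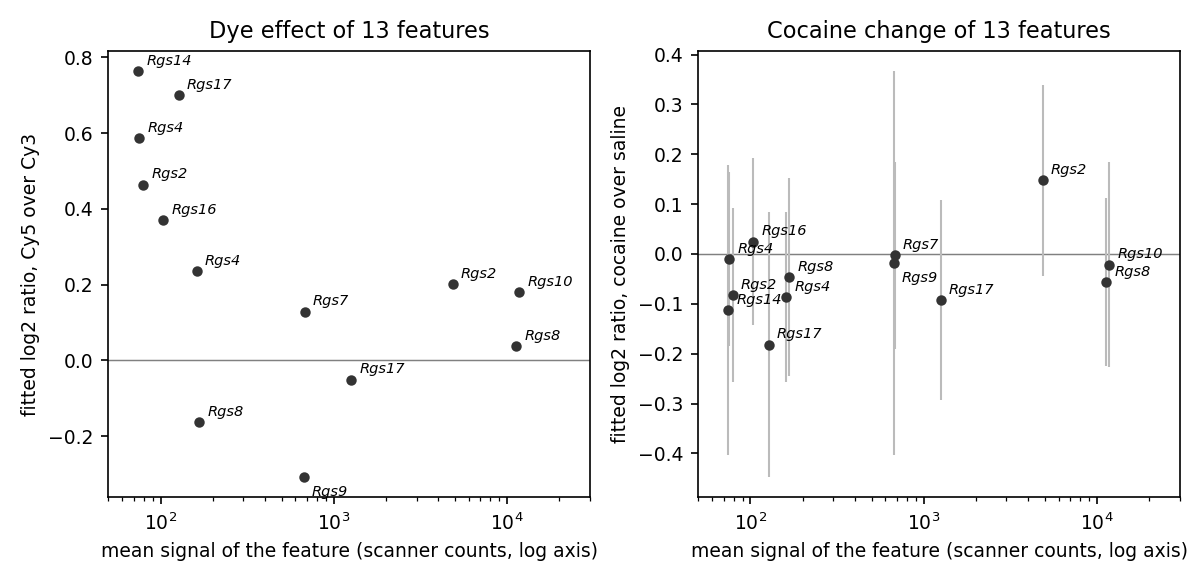
The fitted dye effect (left) and the fitted cocaine change with its 95% interval (right) of the 13 RGS features, on a log2 scale, against mean signal in scanner counts on a log axis. The highest dye effects, up to 0.76, are those of features under 200 counts, where Rgs8 has -0.16, and every cocaine interval includes 0.

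The genes whose 4 ratios lay nearest to those of Rgs17 were Casd1, Tmem216 and Prox2, with root-mean-square differences of 0.029, 0.029 and 0.033 over the 4 pairs. Their fitted changes were -0.13, -0.12 and -0.13, none past the threshold (limma adjusted p = 0.967 for each). All 3 alternated with the dye as Rgs17 did. Since they were picked for ratios near those of Rgs17, the alternation and the like fitted changes follow from the choice. The likeness thus includes the dye effect.

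The rest of the RGS family gave the same count of calls. Of 17 other members listed, 16 were measured, with 8 above 0 and 8 below it, a median change of 0.0030 and 0 past the adjusted threshold in limma. At an unadjusted p under 0.05 there were 2. Snx14, a sorting nexin with an RGS-like domain, was the only one of these that was higher, with ratios of 0.42, 0.17, 0.043 and 0.27, above 0 in all 4 pairs. Its fitted change was 0.23 ± 0.079 (n = 4; limma adjusted p = 0.967). Rgs1, an R4 member best known from lymphocytes, read -0.19, -0.33, -0.016 and -0.23, below 0 in all 4 pairs, and its change was -0.19 ± 0.062 (n = 4; limma adjusted p = 0.967). Its feature, with 50.1 counts, is dimmer than any of the 13.

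Rgs5, the neighbour of Rgs4 and a marker of pericytes, had the highest fitted change of the family, 0.32 ± 0.14 (n = 4; limma adjusted p = 0.967). It read 0.86, 0.16, -0.048 and 0.31, so pair 1 was far above the rest. Rgs4 beside it had -0.048. Of 10 endothelial and pericyte markers, which include Rgs5, 9 were above 0, with a median of 0.11, and 0 passed the adjusted threshold in limma. Rgs13, next to Rgs2, had a change of 0.075 ± 0.060, and Axin2 and Gna13, on either side of Rgs9, had changes of 0.057 ± 0.081 and 0.0017 ± 0.059.

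R7 proteins are held stable by Gnb5, an atypical G protein beta subunit, and are brought to membranes by the anchors Rgs7bp and Rgs9bp or by the receptors Gpr158 and Gpr179. Gnb5 read 0.20, 0.23, -0.097 and 0.54 in pairs 1 to 4, higher in 3 of 4. Its fitted change was 0.22 ± 0.082 (n = 4; limma unadjusted p = 0.0373, adjusted p = 0.967). It was 1 of 2 partners above 0, the other being the R7 paralogue Rgs11 (0.022), while 5 of the 7 partners measured were below 0 and the list's median was -0.053. Gpr158 read -0.59, -0.25, 0.20 and -0.10, with a change of -0.19 ± 0.13 (n = 4; limma adjusted p = 0.967). Rgs7bp (-0.029 ± 0.10), Rgs9bp (-0.062 ± 0.059) and Rgs6 (-0.055 ± 0.057) lay within about 1 standard error of 0. Gnb5 and its clients Rgs7 (-0.0029) and Rgs9 (-0.018) thus had separate fitted values, whose differences were not tested.

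**Figure D3:**
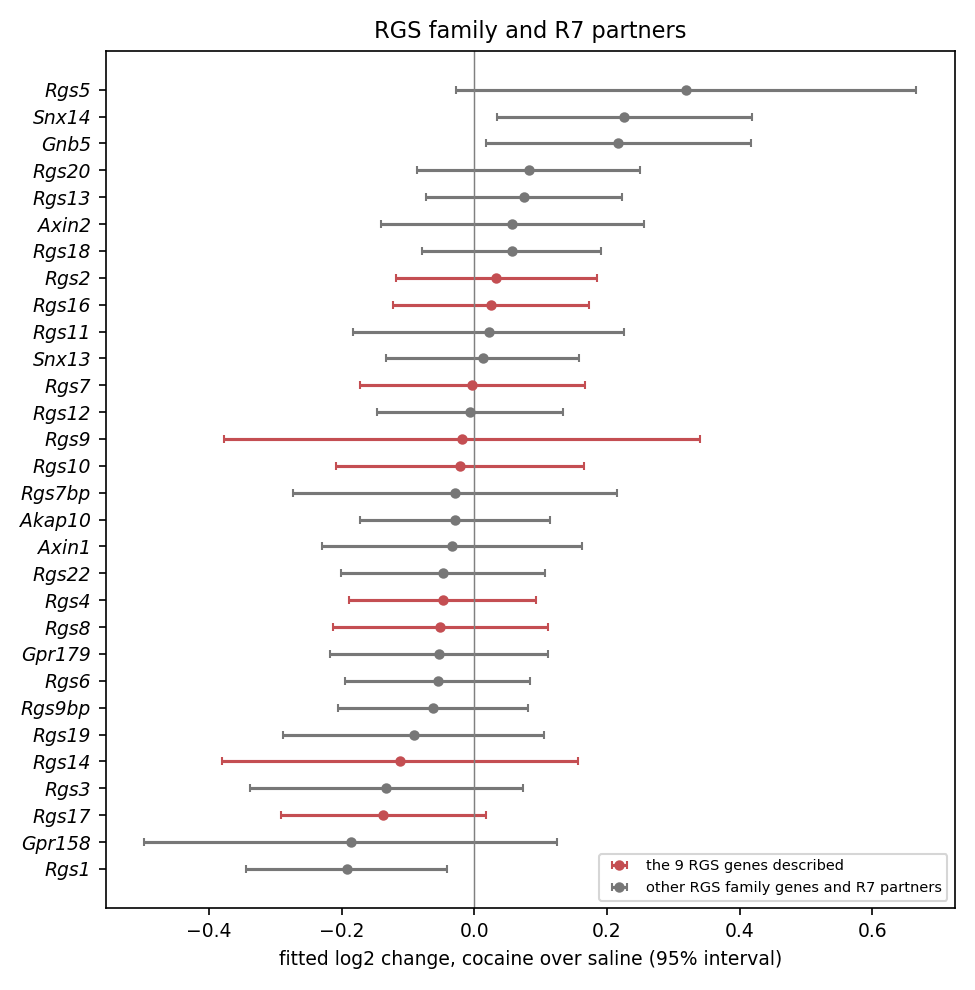
Fitted log2 change of cocaine over saline (horizontal axis) with 95% interval for the 9 RGS genes (red) and for other RGS family genes and R7 partners (grey), ordered by change. The 9 lie between -0.14 and 0.033, with Rgs5, Snx14 and Gnb5 above them and Rgs1 and Gpr158 below them.

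The G proteins, effectors and receptors around the RGS step were also without a call, with 0 past the adjusted threshold in limma in each list. The 13 alpha subunits had a median change of 0.0017 and 0 at an unadjusted p under 0.05. Nearest to it were Gna14, a Gq-class subunit (0.10 ± 0.058), and Gnaz, the Gz subunit that RZ proteins act on (-0.16 ± 0.095). The 15 beta and gamma subunits had a median of -0.0039 with 2 at an unadjusted p under 0.05, Gnb5 and the gamma subunit Gng8 (-0.30 ± 0.11). Gng8 is dim, at 86.0 counts, and alternated with the dye in the manner of Rgs14, reading 0.56, -1.56, 0.69 and -0.91.

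The 16 effectors had a median of 0.0082 and 1 gene at an unadjusted p under 0.05. This was Adcy5, the main adenylyl cyclase of striatal neurons, which read -0.62, -0.095, -0.29 and 0.16, with a change of -0.21 ± 0.080 (n = 4; limma adjusted p = 0.967). It is also on the striatal list. Kcnj9, a subunit of G protein-activated potassium channels, had a change of -0.11 ± 0.069. Of 32 receptors listed, 29 were measured, with a median of -0.0010 and 2 at an unadjusted p under 0.05. These were the dopamine D4 receptor Drd4 (-0.18 ± 0.073, 67.5 counts) and the glutamate receptor Grm5 (0.19 ± 0.079).

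Markers of the labelled tissue were measured, but their signal alone cannot tell the pallidum from nearby tissue. All 10 pallidal neuron markers had a signal above the median of all features, from 128 to 373500 counts. So did 9 of 9 astrocyte, 9 of 9 oligodendrocyte and 8 of 8 microglial markers, against 5 of 9 cortical and thalamic ones. The pallidal markers had a median change of 0.027, with 6 above 0 and 4 below. Those with the smallest unadjusted p were Kcng4 (-0.14 ± 0.069) and Npas1 (-0.10 ± 0.055). Striatal markers were also present, as given beside Rgs9, their smallest unadjusted p being those of Adcy5 and Rasd2 (-0.13 ± 0.060). Lists for other cell types had median changes of 0.0078 (cholinergic neurons, 6 genes), -0.011 (cortical and thalamic neurons, 9), 0.088 (astrocytes, 9) and -0.033 (oligodendrocytes, 9), with 0 genes past the adjusted threshold in limma and 0 or 1 per list at an unadjusted p under 0.05. In the same order, 4 of 6, 3 of 9, 6 of 9 and 4 of 9 were above 0. The genes with the smallest p in these lists were Ache (-0.19) and Slc18a3 (-0.068), Emx1 (-0.28) and Slc17a6 (-0.15), Sox9 (0.16) and Fabp7 (0.11), and Trf (-0.19) and Olig2 (0.16). Ache and Slc18a3 are the only 2 cholinergic markers below 0. Among microglial markers, of which 5 were above 0 and 3 below, the genes with the smallest p were Cx3cr1 (0.092) and Itgam (0.083). Among endothelial and pericyte markers they were Pdgfrb (0.14) and Rgs5.

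**Figure D4:**
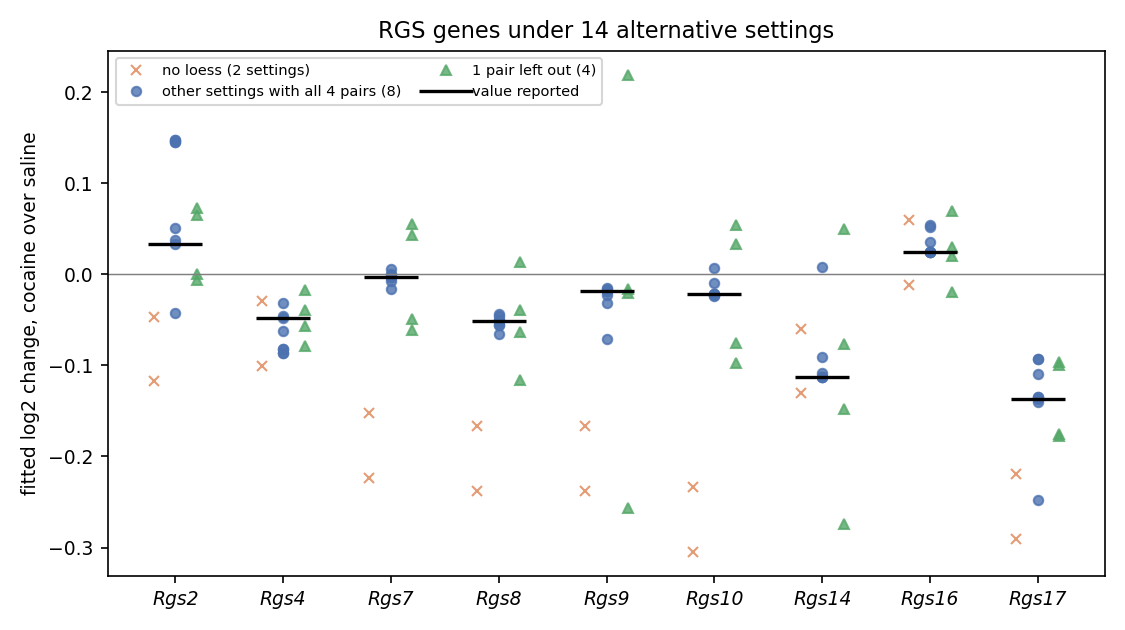
Fitted log2 change of cocaine over saline (vertical axis) for the 9 RGS genes under 14 alternative settings, with the value reported as a black bar, settings without loess as crosses, other settings with all 4 pairs as circles and fits without 1 pair as triangles. Rgs4 and Rgs17 lie below 0 in all 14, and Rgs9 runs from -0.26 to 0.22.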

How the data were processed

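Per the labels, RNA was extracted with the PicoPure kit and 75 ng per mouse was amplified and labelled. Agilent Feature Extraction is the tool in the submitters' processing notes, with its version and settings not given in the sources used here. Deposited were log2 ratios of 45220 features on 4 arrays. On arrays 1 and 3, 99.99% of them were ratios of whole numbers of 0.5-count steps (relative tolerance 1e-14). On arrays 2 and 4 the shares were 2.69% and 2.77%. The form of the deposited values thus differed between the dye orders, and its part in the fitted dye effect was not tested. Medians of the deposited columns were 0.42, -0.58, 0.41 and -0.43, and the columns correlated at 0.892 and 0.889 within a dye order and at -0.847 to -0.947 between orders. They were therefore read as unnormalized and turned to 1 direction of treatment.

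Signals of arrays 1 and 3 were recovered from these fractions for 45212 features (median 92.6 counts). Each fraction gives only a ratio, so a common multiple of up to 200 was chosen per feature and array. The choice favoured small multiples and like mean signals on the 2 arrays, with no channel under 45 counts. The correlation of 0.998 between the arrays follows partly from this choice and is no check of the recovery. The mean of the recovered signals served for loess on all 4 arrays (span 0.3, 4 iterations). A probe's signal does not rank genes by abundance. The platform annotation gave 1 symbol for 33653 features, several for 56 and none for 11511. Of the named features, 6 had no signal and were left out, and features of a gene were averaged. Limma 3.58.1 in R 4.3.3 (lmFit, eBayes, two-sided, Benjamini-Hochberg, threshold 0.05) fitted a dye term and a cocaine coefficient, with 2 residual degrees of freedom and 4.06 prior ones. The SE leaves out the dye effect of a gene. After loess, gene ratios correlated at 0.517 and 0.518 within a dye order and at -0.379 to -0.684 between orders. The number of arrays limits the precision. Code was tested on simulated data. Scanner files, detection flags and slide batches were not used here.

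Named genes are the 9 members, the 2 genes of each of 14 lists with the smallest unadjusted p (members excluded), the 3 genes nearest to the member with the smallest p (no RIKEN, Gm or LOC symbol), chromosome neighbours, and genes needed to read a count of 5 or fewer. Outside this rule are the striatal markers Drd1, Penk, Ppp1r1b and Drd2, named after their values were seen. The members, lists and tests were chosen with earlier results of these data known. Alternatives were 2 fits without loess, a loess span of 0.7, scaled arrays, a constant background subtracted, no dye term, the brightest feature per gene, single features, dim features left out (at 2 thresholds), and each pair left out.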

Additional observations from a re-analysis of the deposited data

Results flagged for a closer look

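The Rgs9 ratio of pair 2, 0.77, stood apart from the other 3 pairs (-0.33, -0.32 and -0.19). Its gap to the nearest of them was 0.867 of the whole range, above Dixon's critical value for 4 samples. Of 17 sets of 4 ratios checked (9 genes and the features of genes with several), 1 was marked. The critical value marks about 1 in 20 sets of 4 draws from 1 population. These ratios mix 2 dye orders, and some gene sets are averages of feature sets, so that rate need not hold here. The fitted change of Rgs9 was -0.018 with all 4 pairs, -0.26 without pair 2 and 0.22 without pair 4.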

How the results depend on the processing

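No member passed the adjusted threshold in limma under any of the 14 alternatives, in fits without 1 pair included. Rgs17 (-0.29 to -0.092) and Rgs4 (-0.10 to -0.017) stayed below 0 in all 14. In the ratios as deposited, Rgs2 was -0.12 and Rgs16 -0.011, with 0 members above 0 and a median over members of -0.22, where the median of all genes was -0.083. With arrays centred and no loess, Rgs2 was -0.046, 1 member was above 0, and the median over members was -0.15. With arrays scaled, Rgs7 was 0.0061 and Rgs10 0.0075, and 4 members were above 0. With a background subtracted, Rgs2 was -0.042 and Rgs14 0.0082. Without features under the median of all features (92.6 counts), 8 members remained, Rgs14 being dropped. Under the higher median of features with 1 symbol (111 counts), an alternative added after seeing the data, Rgs16 was dropped too and 1 of 7 was above 0. In these cases the cause was not tested.

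Leaving out 1 pair at a time gave ranges of -0.0067 to 0.072 (Rgs2), -0.061 to 0.055 (Rgs7), -0.12 to 0.013 (Rgs8), -0.26 to 0.22 (Rgs9), -0.097 to 0.054 (Rgs10), -0.27 to 0.050 (Rgs14) and -0.019 to 0.069 (Rgs16). The median over members ran from -0.039 to -0.016, and 2 to 4 members were above 0. Such a fit leaves 1 array in a dye order, assumed to vary like the others. Over all genes, limma called 14 at an adjusted p under 0.05 without pair 4 and 3 without pair 2, and 0 otherwise. The count at an unadjusted p under 0.05, 498, was 72 as deposited, 188 with centring, 134 with no dye term, 173 without pair 1, 1041 without pair 3 and 2576 without pair 4. Among members, it was 1 as deposited (Rgs9, at -0.24) and 0 in the other settings with all 4 pairs. Without pair 2 the change was -0.26 for Rgs9 and -0.27 for Rgs14, and without pair 4 it was 0.22 and 0.050. The sign of both thus depended on the pairs used. The fit was itself paired, because each array holds 1 pair as a ratio, and the series has 1 group.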
